A study of Schizosaccharomyces pombe with 40 samples.

Results

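The cytosolic ribosomal protein genes of fission yeast (Schizosaccharomyces pombe) were followed through a hydroxyurea time course in 4 strains with altered rep2. They were taken as all genes whose symbol in the platform annotation begins with rpl or rps and a digit, which gave 117 genes, 73 of the large and 44 of the small ribosomal subunit, among the 4816 named genes on the array. Of these, 116 were tested (72 large, 44 small). The large subunit gene rpl803 was left out because it lacked a value on 9 of 40 arrays, and rps2501 was kept apart because its 2 probes each list more than one gene ID.

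Rep2 activates MBF, which switches on genes for S phase, and hydroxyurea blocks ribonucleotide reductase and so stalls DNA replication. The strains were C delta21, C delta53 and C delta94, truncations of rep2 per the labels, and the site mutant 2C/S-H/Y. Cells in exponential growth in rich YES medium received 8 mM hydroxyurea. RNA was taken before it (0 min) and after 10, 30, 60 and 120 min, on 2 arrays per strain and time and 40 in all. The value for each probe was a log2 ratio of strain (Cy5) to one pooled RNA of wild-type cells in mid log phase (Cy3), so there was no array of wild-type cells in hydroxyurea and no dye swap.

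A ribosome is built from a large and a small subunit, each of ribosomal RNA and many different proteins, most of which are present once per ribosome. In fission yeast many of these proteins are encoded by a pair of near-identical genes, named by the suffixes 01 and 02, and a few by a triplet. Their mRNAs are among the most abundant in a growing yeast cell and are known to fall together when growth slows or cells meet stress, as part of the core environmental stress response.

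The deposited values of these genes have a feature that touches the results below. On 35 of the 40 arrays one log2 ratio was repeated, to within 0.001 of the linear ratio, by at least 7 and up to 120 of the 234 probes of ribosomal protein genes. These repeated readings made up 14.4% of all readings of ribosomal protein probes, against 0.554% of the readings of all other probes. On the second C delta94 array at 0 min, 120 probes (51.3%) read −0.11, and 51.3% was the highest share of any array. The lowest among the 35 was 2.99%, on the second C delta94 array labelled 30 min. The 5 arrays with no such value were the replicate 1 arrays of 2C/S-H/Y. A reading equal to the common value of its array may carry no separate measurement of its gene, which was not tested. Signal intensities were not used here, so whether those probes were saturated in both colours was not tested.

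The genes differed widely in this respect. Of the 116 tested, 22 never gave the repeated value in their 80 readings (2 probes on 40 arrays), 46 gave it in up to 10% of readings and 48 in more. The most affected was rpl3001, with 63 of 80 readings, followed by rps401 (56), rpl1002 (51), rps1601 (49) and rps2201 (48). The 10 genes that fell most at 120 min gave it in 0 to 7 of 80 readings: rpl302 and rps3 never gave it, rpl1603, rps403, rps1001, rps1002 and rps1401 gave it once each, and rpl702, rps2202 and rpl301 gave it 2, 4 and 7 times. Across the 116 genes, the share of repeated readings and the size of the change at 120 min had a correlation of −0.45, a description over genes that share the same arrays. The plot of repeated readings shows both patterns.

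**Figure D1:**
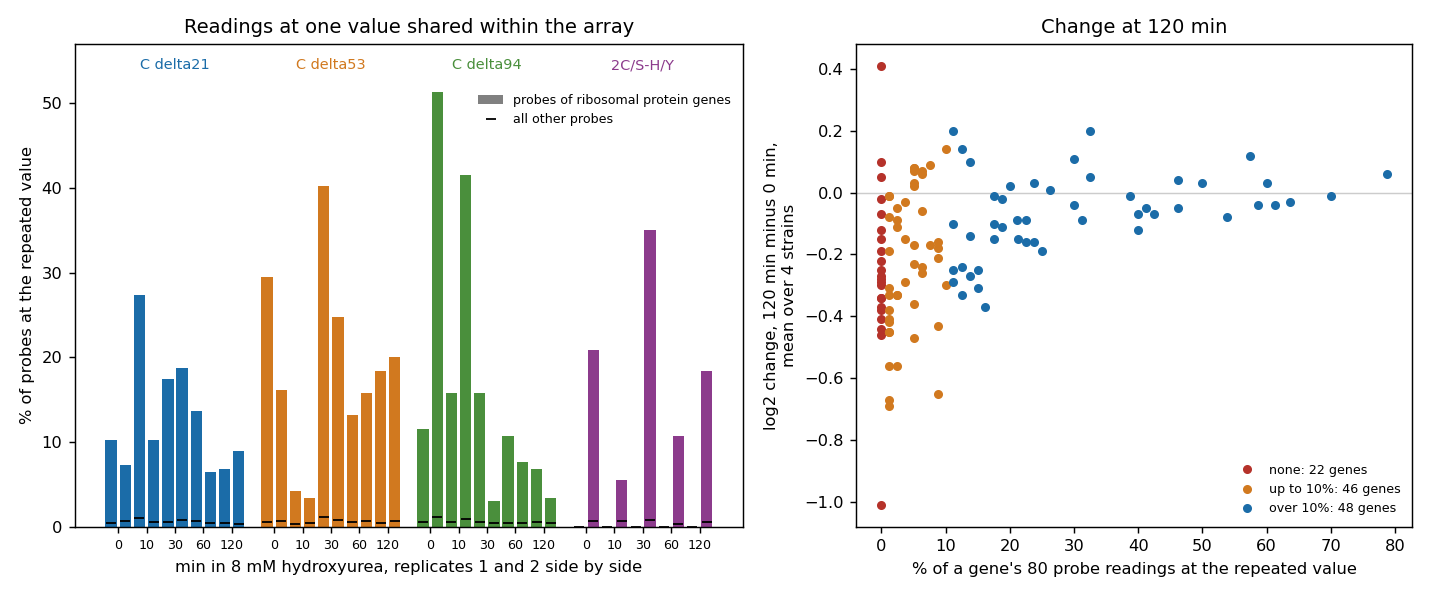
Left, the percentage of probes on each array that read the value repeated within that array, as bars for the 234 probes of ribosomal protein genes and as dashes for all other probes, with the 2 replicates of each time side by side. Right, each of the 116 genes by its share of repeated readings (x axis, % of 80 readings) and its log2 change at 120 min (y axis, mean over 4 strains). Ribosomal protein probes reach 51.3% on one array while other probes stay near 1% or lower, and genes with a large share of repeated readings lie close to 0.

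Other features of the arrays touch these genes too. The 2 replicate arrays of C delta53 correlated at 0.977 to 0.99 across probes at each of the 5 times, against 0.68 to 0.934 in the other strains, so that the replicates of this strain were closer to each other than those of the others. The first 2C/S-H/Y array at 60 min correlated at 0.99 with the first at 30 min. The times of 2 pairs of C delta94 arrays are in doubt from the readings of cdc18, a replication licensing gene. It read −1.18 and −0.59 in the arrays labelled 120 min and −0.65 and −0.83 in those at 60 min. In those labelled 30 min it read −0.34 and 0.24. In each of the other 3 strains its 2 highest values were those at 120 min. Exchanged times and a different cdc18 course in C delta94 itself cannot be told apart here. The targeted gene, rep2, read −0.96 to −0.57 in C delta21, −3.2 to −2.67 in C delta53, −5.58 to −4.68 in C delta94 and −0.19 to 0.56 in 2C/S-H/Y. Separate cultures for the 2 arrays are not stated in the labels, and the p-values therefore reflect differences among arrays that may be technical.

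As a mean over the 4 strains, ribosomal protein mRNAs were lower in hydroxyurea than before it, modestly and most broadly at 60 min. The median change over the 116 genes was −0.09 at 10 min, −0.14 at 30 min, −0.25 at 60 min and −0.14 at 120 min, against 0, −0.01, −0.02 and 0 for all 5004 features. With limma and Benjamini-Hochberg adjustment over all features (threshold 0.05), 10 of the 116 fell at 10 min (8.62%, against 4% of all features), 31 at 30 min (26.7%, against 13.6%), 74 at 60 min (63.8%, against 20.2%) and 48 at 120 min (41.4%, against 24.4%). Few rose: rpl1603 at 10 min (0.16, adjusted p = 0.0361), rps2802 at 60 min (0.25, adjusted p = 0.0112), and rps2802 and rps3002 at 120 min, where 5.5%, 12.9% and 23.9% of all features rose. At 30 min limma called no gene higher, adjusted or at an unadjusted p under 0.05, against 13.1% of all features. Of the 48 genes that fell at 120 min, 45 had also fallen at 60 min, and both comparisons use the same 0 min arrays. The excess at 60 min varied with the setting. Without C delta94, some of whose array times are in doubt, 57 fell at 60 min and 52 at 120 min (medians −0.23 and −0.17). Under quantile normalization 76 and 68 fell (medians −0.26 and −0.23), and without 2C/S-H/Y 97 and 54 (medians −0.36 and −0.18). The shares of all features in these settings are not given here.

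The genes that never gave a repeated reading were lower at both late times. Of these 22, 14 fell at 60 min and 15 at 120 min, with medians of −0.24 and −0.28. Of the 48 genes with over 10% repeated readings, 30 fell at 60 min and 10 at 120 min, with medians of −0.25 and −0.06. The 46 genes between them had medians of −0.27 and −0.2, with 30 and 23 falls. The median change was thus smaller at 120 min than at 60 min in the classes with repeated readings and not in the class with none. With all repeated readings set to missing, 92 genes passed the filter on missing values, and 60 of them fell at 60 min and 46 at 120 min, with medians of −0.27 and −0.2, so there too the change was smaller at 120 min.

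The medians and counts varied from strain to strain. By limma's F test for a difference between the time courses, described below, 46 of the 116 genes passed (39.7%, against 52.6% of all features). In C delta21 the median over the 116 genes was −0.29, −0.26, −0.43 and −0.36 at 10, 30, 60 and 120 min, with 1, 1, 54 and 47 genes past the threshold for a fall (0.862%, 0.862%, 46.6% and 40.5%, against 1.12%, 0.6%, 12.9% and 12.6% of all features). By limma no gene rose at any of the 4 times (1, 0, 0 and 0 at an unadjusted p under 0.05), against 1.06%, 0.859%, 4.88% and 11.5% of all features. The array medians were 0.09 and 0.17 at 60 min and 0.27 and 0.24 at 120 min, against 0.67 and 0.44 at 0 min, and did not overlap. The counts rest on single arrays: without replicate 1 at 0 min, 5 genes fell at 60 min and 12 at 120 min, without replicate 1 or 2 at 60 min 20 or 21 fell, and without replicate 1 or 2 at 120 min 24 or 19 fell. At 60 min the count was 31 with arrays centred on their medians (median −0.36), 30 with the second probe alone and 19 with the compared groups fitted alone.

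In C delta53 the medians were 0.1, −0.3, −0.3 and −0.13, and 1, 3, 15 and 27 genes fell (against 0.899%, 1.58%, 4.12% and 21.3% of all features, where 27 of 116 is 23.3%). By limma none rose at 10 or 30 min (6 and 0 at an unadjusted p under 0.05), against 1.6% and 2.26% of all features. With the compared groups fitted alone 43 and 8 rose, and at 10 min 3 rose with the replicate block and 2 under quantile normalization. Of the 15 falls at 60 min, 14 were among the 48 genes with over 10% repeated readings. With repeated readings left out 4 genes fell, and the median was −0.23. The array medians at 0 min were 0.44 and 0.14, and among the 22 genes with no repeated reading the same arrays had medians of 0.27 and 0.26. At 120 min these 22 genes had array medians of −0.08 and −0.06, and 9 of them fell. When the near-repeat arrays of each time were averaged and counted once, limma called 0 genes lower at 60 min (16 at an unadjusted p under 0.05) and 8 at 120 min, while the 60 min median stayed at −0.3. The 60 min count was also 0 without replicate 1 at 0 min and without replicate 1 or 2 at 60 min (11, 35 and 26 at an unadjusted p under 0.05), and the 120 min count was 17 without replicate 1 at 0 min. Other settings raised the 60 min count, to 32 under quantile normalization, 38 with the replicate block and 96 with the compared groups fitted alone. The last of these also gave 51 falls at 120 min. One gene, rps2802, rose at 60 min, and rps2802 and rpl3703 rose at 120 min (against 4.48% and 19.8% of all features).

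In C delta94 the genes were lower at 60 min, with array medians of −0.44 and −0.47 against −0.14 and −0.11 at 0 min, a median change of −0.36 and 16 falls (13.8%, against 2.64% of all features). By limma that count was 0 without the second 60 min array and 0 under quantile normalization (42 and 35 at an unadjusted p under 0.05), and it was 4 and 2 without the first or second 0 min array. It was 44 with the replicate block and 27 with the compared groups fitted alone. The median stayed between −0.37 and −0.25 in these settings and the others that kept all arrays. In the arrays labelled 120 min no gene passed limma's test in either direction (2 lower and 2 higher at an unadjusted p under 0.05, against 0.12% and 0.639% of all features called), with a median of 0. In those labelled 30 min 7 fell (6.03%, against 11.7%), with a median of −0.07. By limma no gene rose at 30 or 60 min (3 and 0 at an unadjusted p under 0.05, against 12.5% and 2.7% of all features called), and none passed in either direction at 10 min (2 lower and 2 higher unadjusted, against 0.04% and 0.04%).

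In 2C/S-H/Y genes were called in both directions. At 10, 30, 60 and 120 min 19, 15, 14 and 22 fell (16.4%, 12.9%, 12.1% and 19%, against 10.9%, 12.3%, 13.9% and 22.8% of all features). At the same times 4, 8, 11 and 6 rose (3.45%, 6.9%, 9.48% and 5.17%, against 12.2%, 13.6%, 15.5% and 21.5%). The falls at 30, 60 and 120 min were thus near the background, and the rises lay below it at each time. Without replicate 1 at 0 min or replicate 2 at 120 min, 9 genes fell at 120 min. Under quantile normalization 30, 27, 28 and 42 fell at the 4 times, and the 120 min median was −0.23. The 6 rises at 120 min were 22 without replicate 2 at 120 min, 1 without replicate 1 at 120 min, 12 with repeated readings left out, and 0 by limma without replicate 2 at 0 min (4 at an unadjusted p under 0.05). The 8 rises at 30 min were 15 without replicate 2 at 30 min, 3 and 1 without replicate 1 or 2 at 0 min, and 0 by limma without replicate 1 at 30 min (1 unadjusted). The medians were −0.1, −0.02, 0.05 and −0.01. The replicates differed in level: at each of the 5 times the first array lay above the second, by 0.18 to 0.42 in the median, with 102 to 113 of the 116 genes higher on the first. The median gap over all features was −0.02 to 0.03. The 11 genes that rose at 60 min, all but rps2502 and rps3001 of the large subunit, included rpl3801 (0.73), rpl29 (0.67) and rpl3802 (0.58). That count was 6, 2 and 2 without replicate 1 at 0 min, replicate 2 at 0 min and replicate 1 at 60 min.

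**Figure D2:**
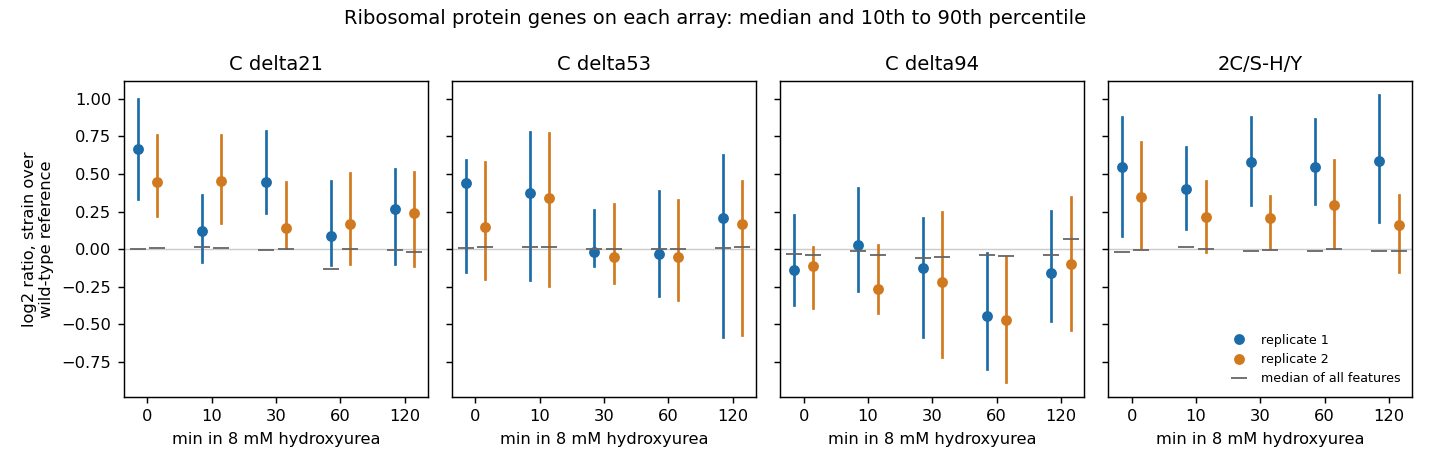
Median (points) and 10th to 90th percentile (bars) of the log2 ratio of 116 ribosomal protein genes on each of the 40 arrays, by strain and time, with the median of all features as dashes; times are spaced evenly. The 60 min arrays lie below the 0 min arrays in C delta21, C delta53 and C delta94, and in 2C/S-H/Y replicate 1 lies above replicate 2 at each time.

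The largest fall at 120 min was that of rpl302. It and its paralog rpl301, which ranked below rpl1603 and rps403, encode ribosomal protein L3 of the large subunit, which reaches to the peptidyl transferase centre. In C delta53 rpl302 read −2.68 and −2.67 at 120 min, against −0.5 and −0.5 at 0 min. In C delta21 it read −0.36 and −0.18, against 0.59 and 0.43, and in 2C/S-H/Y −0.42 and −0.64, against 0.79 and 0.52. In the C delta94 arrays labelled 120 min it read −0.31 and −0.17, against −0.43 and −0.24 at 0 min. The 2 times thus did not overlap in 3 strains and overlapped in C delta94, but there the arrays labelled 30 min, whose times are equally in doubt, read −0.87 and −0.6, below both 0 min arrays (change −0.4, adjusted p = 0.043 by limma). The mean change of rpl302 was −1.01 (SE 0.07, 2.02-fold lower, adjusted p = 3.77e-12), and it was the only ribosomal protein gene with a mean change of 2-fold or more. Within strains the change was −2.17 (4.51-fold lower, adjusted p = 3.09e-12) in C delta53, −1.19 (adjusted p = 1.69e-07) in 2C/S-H/Y and −0.78 (adjusted p = 0.000261) in C delta21, all by limma. Both of its probes gave the same mean change, −1.03 and −1.

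The fall of rpl302 came late in C delta53. Its readings there were −0.56 and −0.58 at 10 min, −0.35 and −0.38 at 30 min, −0.97 and −0.98 at 60 min and −2.68 and −2.67 at 120 min. Its paralog rpl301 read −1.37 and −1.41 in C delta53 at 120 min, against 0.05 and 0.04 at 0 min, a change of −1.43 (2.7-fold lower, adjusted p = 2.12e-08). In the 4 strains together rpl301 changed by −0.65 (SE 0.08, adjusted p = 6.14e-08).

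A second large subunit gene, rpl1603, one of the 3 copies for protein L16, read −1.36 and −1.51 in 2C/S-H/Y at 120 min, against −0.38 and −0.27 at 0 min. In C delta53 it read −1.13 and −1.11, against −0.03 and −0.06, and in C delta21 −0.5 and −0.62, against −0.03 and 0.02. In C delta94 the readings labelled 120 min, −0.61 and −0.68, lay between those at 0 min, −0.5 and −0.78. The C delta94 arrays labelled 30 min read −1.15 and −1.18, a fall of 0.52 on the log2 scale (adjusted p = 0.000343 by limma), so where C delta94 stands at 120 min depends on these labels. At 60 min the C delta21, C delta53 and 2C/S-H/Y arrays had stood between −0.54 and 0.01, so most of the fall came after 60 min. The mean change at 120 min was −0.69 (SE 0.05, 1.61-fold lower, adjusted p = 5.44e-12).

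Among small subunit genes rps403, one of 3 copies for protein S4, fell by 0.67 on the log2 scale (SE 0.07, adjusted p = 1.87e-08). It read −1.64 and −1.65 in C delta53 at 120 min, against −0.34 and −0.33 at 0 min, and −0.04 and −0.12 in C delta21, against 0.69 and 0.59. The large subunit gene rpl702 read −1.95 and −1.92 in C delta53 at 120 min, against −0.78 and −0.77 at 0 min, and changed by −0.56 in the mean (SE 0.07, adjusted p = 8.78e-08). In C delta53 5 genes changed by 2-fold or more at 120 min: rpl301, rpl302, rpl702, rpl1603 and rps403. In 2C/S-H/Y there were 3, rpl302, rpl1603 and rps1001, and in C delta21 and C delta94 none. The share of all features past this limit is not given here. The 10th to 90th percentile of the change of all features at 120 min was −0.55 to 0.54 in C delta53 and −0.56 to 0.58 in 2C/S-H/Y.

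The small subunit gene rps1001 showed another course. In 2C/S-H/Y it read 0.26 and 0.15 already at 10 min and 0.31 and −0.04 at 120 min, against 1.19 and 1.11 at 0 min, and in C delta21 it read −0.13 and −0.13 at 120 min, against 0.92 and 0.51. In C delta53 it read 0.64 and 0.39, against 0.65 and 0.65, a change of −0.14 that did not pass (adjusted p = 0.525). Its mean change was −0.48 at 30 min, −0.57 at 60 min and −0.56 at 120 min (SE 0.08, adjusted p = 1.15e-06 at 120 min). The other genes among the 10 with the largest falls at 120 min were of the small subunit: rps2202, rps3, rps1002 and rps1401, with −0.47, −0.46, −0.45 and −0.45. Rps3 lies at the mRNA entry of the small subunit. Each of these 4 had a fall at 60 min as well, of −0.35, −0.51, −0.48 and −0.51.

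**Figure D3:**
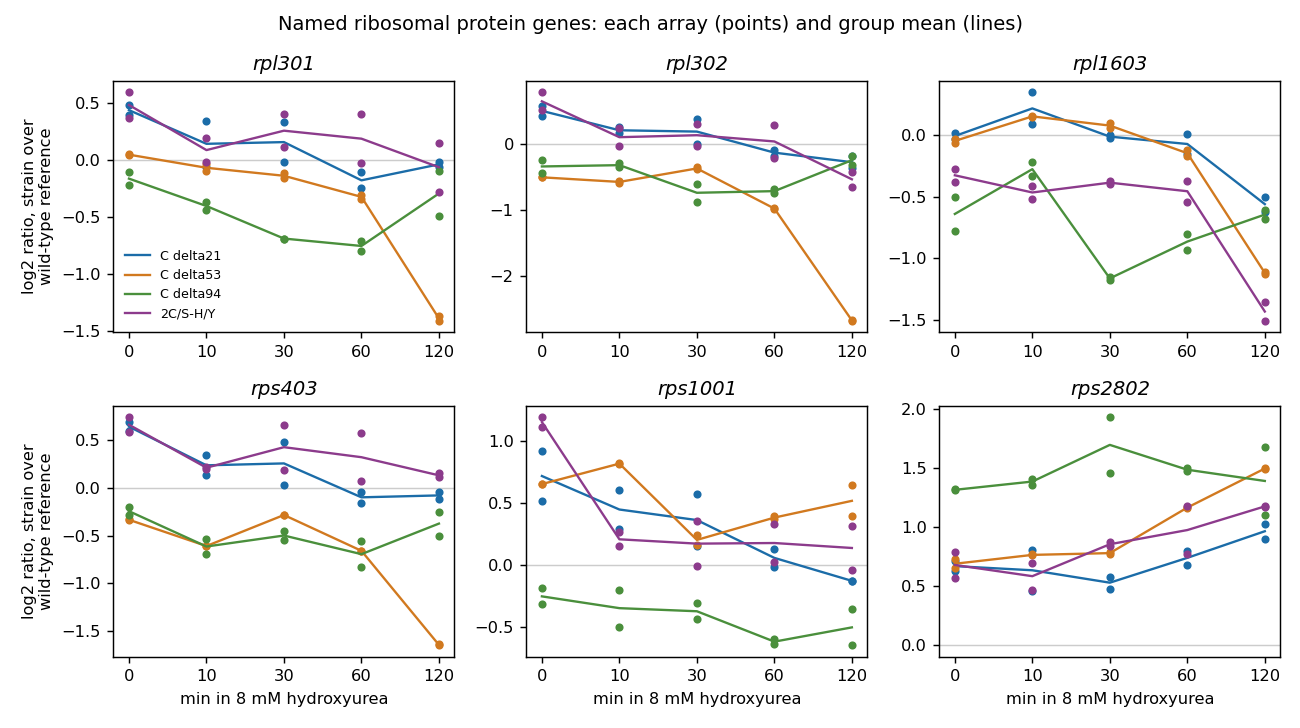
Log2 ratio to the wild-type reference of rpl301, rpl302, rpl1603, rps403, rps1001 and rps2802 on each array (points; some overlap) with the group means joined by lines, by time (x axis, min, spaced evenly) and strain (colour). In C delta53 rpl302 ends at −2.68 and −2.67, the rpl1603 fall comes after 60 min in 3 strains, and rps2802 rises in C delta53.

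The 2 rises at 120 min rest on less. For rps2802, which encodes S28, one of the smallest proteins of the small subunit, the mean change was 0.41 (SE 0.08, 1.33-fold higher, adjusted p = 4.85e-05). It read 1.49 and 1.5 in C delta53 at 120 min, against 0.65 and 0.73 at 0 min. Its 2 probes disagreed: probe 1 changed by 0.92 (adjusted p = 1.94e-07) and probe 2 by −0.09 (adjusted p = 0.492), and over the 40 arrays they correlated at −0.77. For rps3002, which encodes S30, the mean change was 0.2 (SE 0.08, adjusted p = 0.0409), and it did not pass with either probe alone (adjusted p = 0.13 and 0.0569). The probes of rps2502 and rpl3703 also disagreed, with correlations of −0.25 and −0.29. For rpl3703 probe 2 rose by 0.33 (adjusted p = 0.000191) and probe 1 changed by −0.12 (adjusted p = 0.273) in the mean at 120 min. Over all 116 genes the probes had a median correlation of 0.87, and 7 genes, these 3 among them, were under 0.5.

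In the other strains and directions, the largest changes at 120 min were as follows. In C delta21 the lowest were rps1001 (−0.85), rpl1601 (−0.81, adjusted p = 0.00907) and rpl302, and the highest, rps2802 (0.29), rps27 (0.09) and rps2502 (0.08), did not pass. In C delta94 neither the lowest, rpl2302 (−0.43), rps2202 (−0.34) and rps2601 (−0.29), nor the highest, rpl29 (0.37), rps3001 (0.35) and rps3002 (0.33), passed. In 2C/S-H/Y rpl3801 rose by 0.6 (adjusted p = 0.0115), rpl35 by 0.58 (adjusted p = 0.0142) and rps3001 by 0.57 (adjusted p = 0.00466). In C delta53 rps2802 rose by 0.8 (adjusted p = 0.000108) and rpl3703 by 0.6 (adjusted p = 3.78e-05), and rps29, with 0.38, did not pass (adjusted p = 0.12). By probe, the change in C delta53 was 1.72 and −0.12 for rps2802 and 0.38 and 0.83 for rpl3703.

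Whether the time courses differed between strains was tested directly. By limma's F test over the strain by time contrasts, 46 of the 116 genes passed (39.7%), against 52.6% of all features, a smaller share than among all features. By subunit 27 of 72 large and 19 of 44 small subunit genes passed. The count of 46 moved widely with the processing, as given below. Of the genes named next, rpl702, rpl1002, rpl3703 and rps3001 did not pass in some of the alternatives. The smallest p-values were those of rpl302 (adjusted p = 1.49e-08), rpl1603 (adjusted p = 6.07e-08), rpl301 (adjusted p = 8.19e-05), rpl702 (adjusted p = 8.49e-05) and rps403 (adjusted p = 0.00029). For rpl302, rpl301, rpl702 and rps403 the lowest readings of all 40 arrays were the 2 of C delta53 at 120 min, and for rpl1603 they were those of 2C/S-H/Y at 120 min. They were followed by rpl3703 (adjusted p = 0.000583), rpl1002 (adjusted p = 0.0014) and rps3001 (adjusted p = 0.00156). For rps3001 the change at 120 min was −0.74 (adjusted p = 0.000445) in C delta53 and 0.57 in 2C/S-H/Y, that is in opposite directions. In C delta53 it read −0.36 and −0.32, against 0.48 and 0.32, and in 2C/S-H/Y 0.51 and 0.09, against −0.19 and −0.34. In C delta53 its probes again differed, with −1.24 for probe 2 and −0.25 for probe 1. For rpl1002, 51 of 80 readings were the repeated value, and the part of these in its differences between strains was not tested.

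Genes of both subunits were lower in the mean of the strains, and at 60 min the large subunit had the smaller median change. At 60 min the median change over the 4 strains was −0.23 for the 72 large subunit genes and −0.33 for the 44 small subunit genes, a difference (large minus small) of 0.11, and at 120 min −0.11 and −0.16. At 60 min 41 of 72 large subunit genes fell (56.9%) and 33 of 44 small subunit genes (75%), against 20.2% of all features. At 120 min 28 (38.9%) and 20 (45.5%) fell, against 24.4%. No test was made, because the genes are not replicates of a condition. The difference was not seen in each class: among the 22 genes with no repeated reading, the median at 60 min was −0.25 for 15 large and −0.22 for 7 small subunit genes. Within single strains the medians differed by −0.03 to 0.1 (large minus small) over the 4 times.

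**Figure D4:**
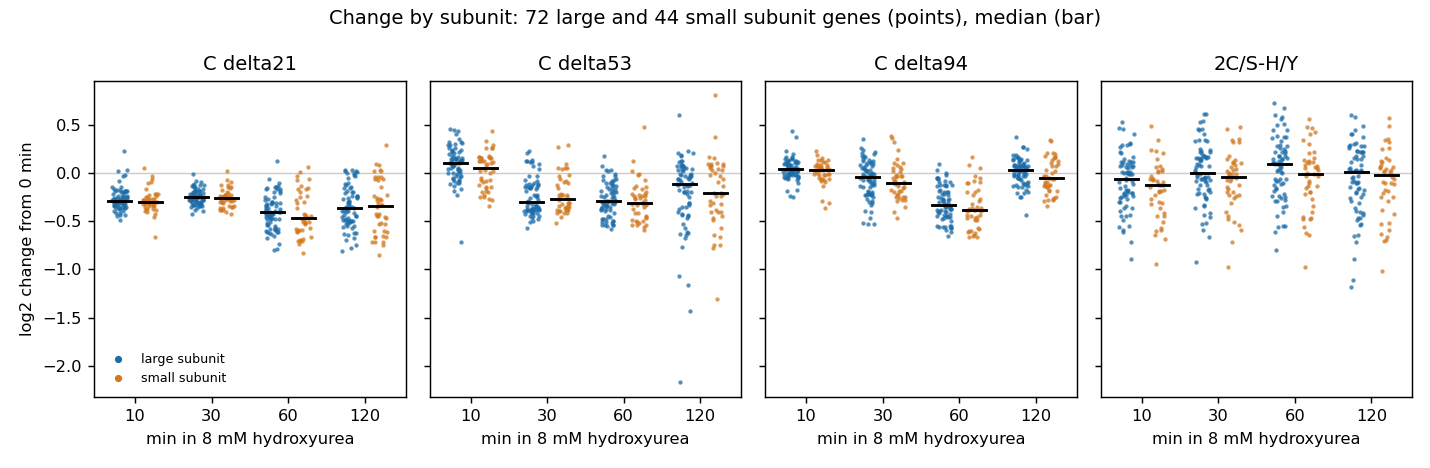
Log2 change from 0 min of each of 72 large (blue) and 44 small (orange) subunit genes (points) with the median of each (bars), by strain and time (min, spaced evenly). The medians of the subunits lie close together in each strain, and a few genes of both subunits fall far below the rest in C delta53 at 120 min.

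Paralogs were compared by the difference between copies in the change at 120 min, over 46 pairs from 42 families (86 genes). In 2 of these families, rpl16 and rps4, 3 copies were paired. Pairs were formed by symbol and needed a copy suffix on both genes. For that reason rpl15 and rpl1502, rpl8 and rpl802, and rps23 and rps2302 were not compared as pairs. In each pair the higher-numbered copy is given first. Over the 40 arrays the copies of a pair correlated at a median of 0.78, against 0.67 for other pairs of ribosomal protein genes, as a description over arrays that all genes share. The absolute difference in change had a median of 0.16 between copies and 0.2 between other pairs. In 14 pairs both copies fell, in 15 one fell while the other did not pass, in 15 neither passed, and 2 had another combination.

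In an exact permutation test (two-sided) with the 0 and 120 min arrays exchanged within each strain (1296 regroupings, smallest possible p = 0.00154), 14 pairs had an unadjusted p under 0.05 and 6 passed after adjustment over the 46 pairs. These were rps403 over rps401 (difference −0.66, adjusted p = 0.0473), rps2202 over rps2201 (−0.5, adjusted p = 0.0473), rpl102 over rpl101 (−0.46, adjusted p = 0.0473), rpl3002 over rpl3001 (−0.36, adjusted p = 0.0473), rpl3402 over rpl3401 (−0.36, adjusted p = 0.0355) and rpl702 over rpl701 (−0.35, adjusted p = 0.0355), all with the same sign in the 4 strains. In each of them the change of the higher-numbered copy was the lower.

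In 4 of the 6 the copy that changed less was one with many repeated readings. On the 16 arrays at 0 and 120 min, rps401 gave the repeated value in 20 of 32 readings and rps403 in none, rps2201 in 18 and rps2202 in none, rpl3001 in 28 and rpl3002 in none, and rpl101 in 8 and rpl102 in none. These differences set a copy with no repeated reading at these times against one often at the common value of its array, and what part of each difference that accounts for was not tested. The other pairs were nearly free of repeated readings: 0 for rpl3402 and 3 for rpl3401, and 1 for each of rpl702 and rpl701.

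With repeated readings left out, 20 pairs kept a value on every array at 0 and 120 min, and rpl3402 over rpl3401 (−0.39, adjusted p = 0.0154) and rpl702 over rpl701 (−0.34, adjusted p = 0.0154) passed over those 20. For rpl34, rpl3402 read −0.09 and −0.17 in C delta21 at 120 min, against 0.57 and 0.45 at 0 min, while rpl3401 read 0.64 and 0.65, against 0.97 and 0.81. In C delta53 rpl3402 read −0.03 and 0.01, against 0.55 and 0.49, while rpl3401 read 0.62 and 0.36, against 0.55 and 0.58. For rpl7, rpl702 fell by 0.56 and rpl701 by 0.21 in the mean, and in C delta53 rpl701 read −0.81 and −0.81 at 120 min, against −0.17 and −0.23 at 0 min. No pair of the 46 passed when the C delta94 arrays or the 2C/S-H/Y arrays were left out or when near-repeat arrays were counted once (13, 13 and 12 pairs at an unadjusted p under 0.05 by the exact permutation test). None passed without replicate 1 of C delta94 at 0 min or replicate 2 of 2C/S-H/Y at 0 min either (14 and 13 pairs unadjusted).

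Of the remaining large differences, rps2802 over rps2801 (0.53, adjusted p = 0.0799) rests on the probes of rps2802 that disagree. The pairs rpl302 over rpl301 (−0.37, adjusted p = 0.101), rps402 over rps401 (−0.36, adjusted p = 0.101) and rpl2702 over rpl2701 (−0.36, adjusted p = 0.0799) did not pass. Closest in mean change were the copies rpl1602 and rpl1601 (−0.38 and −0.37) and rpl1002 and rpl1001 (−0.03 and −0.04). Next came rpl2502 and rpl2501 (−0.01 and −0.02) and rpl1802 and rpl1801 (−0.42 and −0.41). The difference of rpl2502 over rpl2501 varied by strain, at 0.18 in C delta21, 0.24 in C delta53, 0.06 in C delta94 and −0.45 in 2C/S-H/Y. Over the 40 arrays these copies correlated at 0.29. Both rpl1002 and rpl1001 gave the repeated value in 20 of 32 readings at the compared times. The part of this in their likeness was not tested. In the rpl16 family the third copy was set apart in level: rpl1603 was below rpl1602 and rpl1601 on all 40 arrays, by a mean of 0.86 and 0.79. Because copies are near-identical and probe sequences were not used here, whether a probe reads the other copy as well was not tested.

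**Figure D5:**
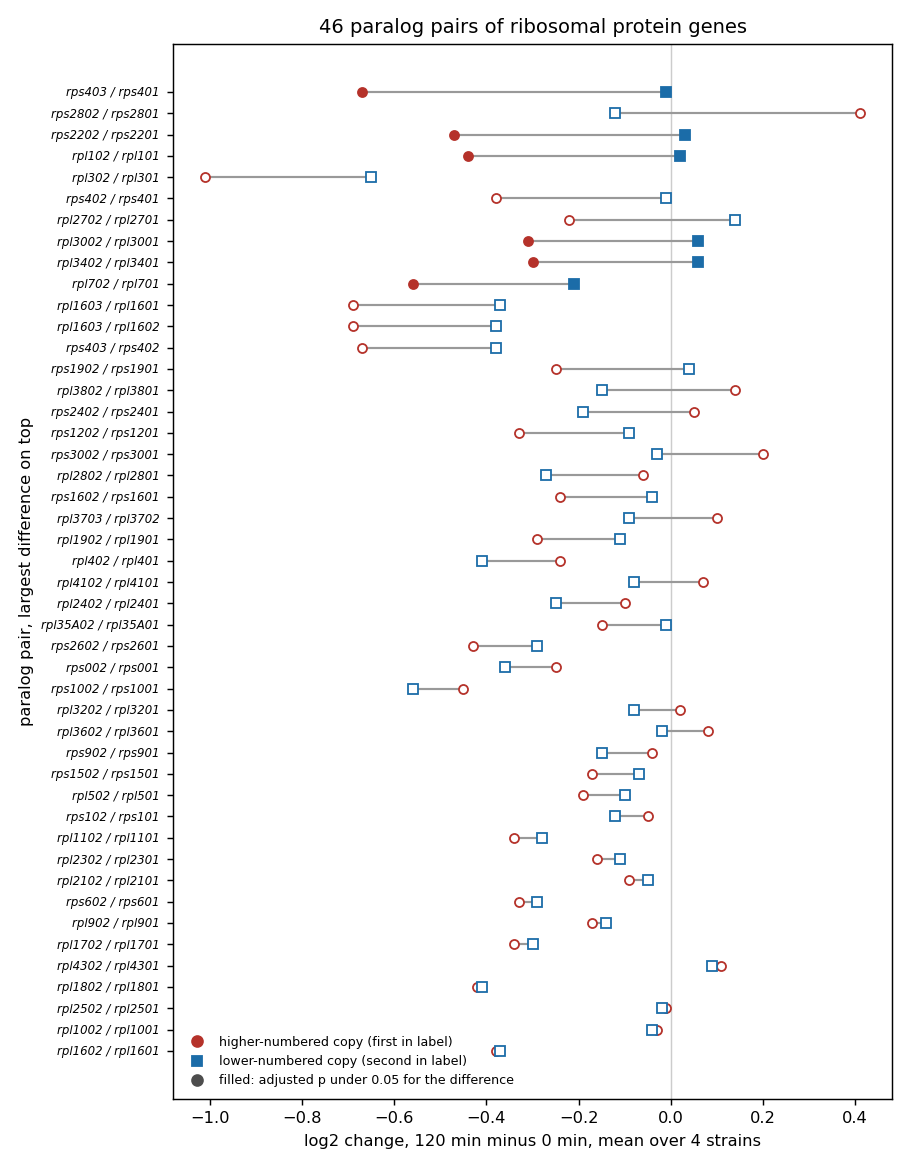
Log2 change at 120 min (x axis, mean over 4 strains) of both copies of 46 pairs, ordered by the size of their difference, with the higher-numbered copy as circles and the lower-numbered as squares; filled symbols mark the 6 pairs with an adjusted p under 0.05 for the difference. In 9 of the top 10 pairs the higher-numbered copy lies further left, with rps2802 the exception.

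Before hydroxyurea each strain was compared with the wild-type reference, and the strains were not tested against each other. The array medians at 0 min were 0.67 and 0.44 in C delta21, 0.55 and 0.34 in 2C/S-H/Y, and 0.44 and 0.14 in C delta53. These overlapped, and those of C delta94, −0.14 and −0.11, lay below them. In C delta21 107 of 116 genes were higher (92.2%, against 27.8% of all features) and none lower by limma (also none at an unadjusted p under 0.05, against 26.1% of features called), with a median of 0.56. In 2C/S-H/Y 86 were higher (74.1%, against 24.3%) and 5 lower (4.31%, against 24.3%), with a median of 0.45. In C delta53 59 were higher (50.9%, against 29%) and 9 lower (7.76%, against 28.3%), with a median of 0.27. In C delta94 25 were lower (21.6%, against 35.8%) and 7 higher (6.03%, against 31.6%), with a median of −0.13. Since the reference is a single RNA pool with one dye throughout, its own spread and any dye effect are left out. Among the 22 genes with no repeated reading the medians were 0.67, 0.51, 0.27 and −0.1 in the same order of strains. Without the first 0 min array, the higher genes numbered 67 in C delta21, 41 in 2C/S-H/Y and 22 in C delta53. In C delta94 the lower genes numbered 11 and 13 without the first or second 0 min array, and 42 with its 0 min arrays fitted alone.

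The highest genes at 0 min were rps1801 (1.08), rpl1601 (1.01) and rpl1602 (1) in C delta21, rps1001 (1.15), rpl1601 (1.14) and rpl1602 (1.13) in 2C/S-H/Y, rpl1602 (0.82), rpl2701 (0.73) and rps2802 (0.69) in C delta53, and rps2802 (1.31), rpl3801 (0.52) and rpl31 (0.41) in C delta94. The lowest were rpl702 (−0.77), rpl302 (−0.5) and rps1202 (−0.47) in C delta53, rps1401 (−0.67), rpl3002 (−0.65) and rpl1603 (−0.64) in C delta94, and rpl102 (−0.52), rpl1603 (−0.33) and rpl3402 (−0.3) in 2C/S-H/Y, all past the threshold. In C delta21 no gene was below the reference beyond the test, and the lowest readings were those of rpl3002 (−0.01) and rpl1603 (0). The genes rpl302, rpl702 and rps403 were already below the reference in C delta53 before hydroxyurea and fell further in it. In C delta21 and 2C/S-H/Y each of the 3 was above the reference at 0 min on both arrays. The low start was not confined to C delta53. In C delta94 rpl302 read −0.43 and −0.24 at 0 min and −0.74 and −0.68 at 60 min. There rpl702 read −0.15 and −0.27 at 0 min and −0.73 and −0.79 at 60 min.

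Over the 40 arrays each gene was correlated with the median of the other ribosomal protein genes: the median correlation was 0.84, and 101 of 116 genes (87.1%) had one above 0.5, against a median of 0.06 and 25.9% of other features. The part of repeated readings in this was not tested. Among the 22 genes with none, the correlation with the median of the rest had a median of 0.8, and 18 had one above 0.5. The lowest were rps2802 (−0.62), rps2401 (−0.01), rps3001 (0.03), rps2502 (0.07), rpl2502 (0.14) and rpl1603 (0.29), and the highest rpl8 (0.97). For rps2802 and rps2502 these are correlations of an average of probes that disagree. Of the other genes that led the differences between strains, rpl302 stood at 0.38, rpl702 at 0.5, rps403 at 0.58 and rpl301 at 0.66.

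Genes that work beside the ribosome were set next to these, from lists chosen with earlier results of these data known. Of all features, 20.2% fell at 60 min and 24.4% at 120 min. The P-stalk genes, whose proteins recruit elongation factors to the large subunit, fell in 4 of 7 cases at 60 min and 4 at 120 min. Their medians were −0.34 and −0.21, and rpp0, the base of the stalk, changed by −0.46 at 120 min (adjusted p = 8.43e-07, limma). Those that did not pass, rpp201, rpp202 and rpp203, gave the repeated value in 24, 27 and 23 of 80 readings. Those that fell, rpp0, rpp101, rpp102 and rpp103, gave it in 0, 1, 9 and 0. All 6 elongation factor genes tested of 7 listed fell at 60 min (median −0.28) and 2 at 120 min (median −0.03). Like the ribosomal protein genes, several gave many repeated readings: tef102, tef103 and tef101, the copies for the factor that brings tRNA to the ribosome, gave 64, 63 and 43 of 80. The initiation factor and eIF5A genes, of which 6 of 8 were tested, had 4 falls at 60 min and 5 at 120 min (medians −0.25 and −0.31), led by sum3, an RNA helicase of initiation, at −0.8 (adjusted p = 2.05e-12). None of the 3 ubiquitin fusion genes passed limma's test at either time. As a description over the 40 arrays, the list median and the ribosomal protein median correlated at 0.93 for the P-stalk, 0.91 for elongation and 0.47 for initiation. These correlations take in the levels of the strains at 0 min and offsets between arrays. They do not measure a shared change in hydroxyurea.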

How the data were processed

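The data were 40 two-colour arrays of 4 fission yeast strains (20 groups of strain and time, 2 arrays each). The deposited values are log2 ratios; the base was checked on the values, since 100% of the values below 0 are whole multiples of 0.001 as a ratio in base 2 (within 0.02 of that unit), against 3.48% in base 10 and 5.51% in base e. The direction was taken as Cy5 over Cy3, strain over reference, from the dyes per the labels' protocols, and is not stated for the ratios themselves. The sources used here do not name the scanner, background correction or normalization, and the values were used as deposited (array medians −0.12 to 0.06). Depth does not apply to arrays, and their number limits the precision. Groups came from the sample titles. The description field names another mutant, which the titles do not.

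The 9858 probes were named through the platform annotation, and both probes of a gene were averaged, which gave 5042 features. Features with a value on 80% of the arrays and at least 1 array of each group were kept (5004). One linear model over the 20 groups was fitted with limma 3.58.1 in R 4.3.3, with Benjamini-Hochberg adjustment over the 5004 features and a threshold of 0.05. Paralog pairs were compared by an exact permutation test adjusted over the 46 pairs. The procedure was tested on simulated data. A repeated value is the most common value of an array where at least 5 ribosomal protein probes hold it. Genes were named by rank: the largest changes at 120 min, the smallest p-values for a difference between strains, the extremes at 0 min, and the paralog pairs and probes that differed most and least. The members, lists and rules were chosen with earlier results of these data known. Gene symbols were looked up in a RefSeq table of assembly ASM294v3, which held 116 of the 117. Promoter, protein and probe sequences were not used here, so a planned count of promoter boxes was not made.

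Alternatives were quantile normalization, centring, no filter, each probe alone, the replicate number as a block, the compared groups alone, and leaving out strains and single arrays. Counting near-repeat arrays of C delta53 once, C delta21 and C delta53 alone, and leaving out repeated readings were chosen after seeing the data.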

Additional observations from a re-analysis of the deposited data

Results flagged for a closer look

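For 8 ribosomal protein genes the change over time differed between the 4 strains by limma's F test, the smallest p-values among the 46 that passed. They were rpl302 (adjusted p = 1.49e-08), rpl1603 (adjusted p = 6.07e-08), rpl301 (adjusted p = 8.19e-05), rpl702 (adjusted p = 8.49e-05), rps403 (adjusted p = 0.00029), rpl3703 (adjusted p = 0.000583), rpl1002 (adjusted p = 0.0014) and rps3001 (adjusted p = 0.00156). At 120 min rpl302 changed by −2.17 in C delta53 and 0.10 in C delta94, and rpl1603 by −1.11 in 2C/S-H/Y and −0.01 in C delta94. The times of the C delta94 arrays are in doubt, and in those labelled 30 min rpl302 changed by −0.40 (adjusted p = 0.043) and rpl1603 by −0.52 (adjusted p = 0.000343). The change of rpl3703 was −0.36 in C delta21 and 0.60 in C delta53, and that of rps3001 was −0.74 in C delta53 and 0.57 in 2C/S-H/Y. The probes of rpl3703 disagreed, with −0.66 and −0.06 in C delta21 and 0.38 and 0.83 in C delta53. The test of rpl702 did not pass under quantile normalization (adjusted p = 0.133), that of rpl1002 with the first probe alone (adjusted p = 0.242), and those of rpl3703 and rps3001 with near-repeat arrays counted once (adjusted p = 0.069 and 0.0855).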

How the results depend on the processing

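The median fall at 60 min stayed between −0.28 and −0.23 and the counts of falls between 60 and 82 at 60 min and 42 and 57 at 120 min when single arrays were left out. The count of falls at 10 min (10) moved to 20 under quantile normalization, 6 with the first and 6 with the second probe alone, 1 with near-repeat arrays counted once, 2 without 2C/S-H/Y, and 1 to 13 without single arrays. At 30 min (31) it was 51 under quantile normalization, 16 with near-repeats once, 52 in C delta21 and C delta53 alone, and 21 to 45 without single arrays. The median of 2C/S-H/Y at 120 min (−0.01) was −0.23 under quantile normalization and −0.27 to 0.16 without single arrays. Without single arrays the median was −0.46 to −0.11 in C delta21 and −0.11 to 0.19 in C delta94 at 10 min, −0.40 to −0.12 in C delta21 and −0.21 to 0.19 in 2C/S-H/Y at 30 min, and 0.14 to 0.44 in C delta53 against the reference.

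Genes that differed between strains (46) numbered 8 with near-repeats once and 32 to 69 without single arrays. Whether replicate numbers pair the arrays over time was not settled. Deviations of same-numbered arrays correlated at −0.26 to 0.38 in C delta21, 0.04 to 0.16 in C delta53, −0.14 to 0.61 in C delta94 and 0.06 to 0.66 in 2C/S-H/Y, so that no strain had every correlation over 0.1, though all were positive in C delta53 and 2C/S-H/Y. With the replicate block, falls numbered 13, 46, 82 and 54 at 10, 30, 60 and 120 min, and genes that differed between strains 91. Paralog pairs past the threshold (6) were 12 with the first and 2 with the second probe alone, 2 with repeated readings left out, 0 without C delta94, 0 without 2C/S-H/Y and 0 with near-repeats once (13, 13 and 12 by unadjusted exact permutation p), and 0 to 6 without single arrays. The rise of rps2802 was −0.09 with its second probe alone (adjusted p = 0.492) and 0.01 under quantile normalization (adjusted p = 0.951). The cause of these shifts was not tested.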

Other observations

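Of all features, 20.2% fell at 60 min, and 24.4% fell and 23.9% rose at 120 min. Among genes that build ribosomes, RNA polymerase I subunits, which transcribe the ribosomal RNA, fell in 5 of 9 cases at 60 min and 7 at 120 min in the mean of the 4 strains, with medians of −0.23 and −0.28. The largest fall at 120 min was that of rpa43 (−0.50, adjusted p = 7.13e-08, limma). Chaperones of ribosomal proteins fell in 5 of 8 cases at 60 min and 6 at 120 min, among them fap7 (−0.55 at 120 min), while bcp1, known in budding yeast as the chaperone of Rpl23, rose by 0.49 at 60 min and 0.89 at 120 min (adjusted p = 5.43e-14). Of 8 regulators of ribosomal protein genes known mainly from budding yeast, 3 fell at 120 min, sfp1 (−0.52, adjusted p = 9.49e-08), hmo1 (−0.31) and rrn7 (−0.25). Of 10 TORC1 and S6 kinase genes 4 rose at 120 min and 1 fell, sck2 (−0.53, adjusted p = 2.64e-08). The lists were chosen with earlier results of these data known. Over the 40 arrays the list medians correlated with the ribosomal protein median at 0.13 for RNA polymerase I and −0.04 for chaperones. For regulators the correlation was 0.36, and for TORC1 and S6 kinase genes 0.75. Strain levels at 0 min and offsets between arrays enter these values, which do not measure a shared change in hydroxyurea.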
